A study of Mus musculus with 2 samples.

Results

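The genes described here are the eukaryotic translation initiation factors and their direct regulators, chosen from the array's gene annotation as every probe set with a single gene symbol that begins with Eif and a digit, apart from the sex-linked pair Eif2s3x and Eif2s3y. The rule gave 45 genes of the 18193 genes named on the array, carried by 128 probe sets. Eif1, Eif2s1, Eif3g and Eif4g1 had no probe set of their own in that annotation, and Eif3j1 and Eif3j2 had only shared ones. RNA came from the cerebral cortex of mice labelled male, aged 4 weeks, on a mixed 129/B6 background, and was hybridised on 2 Affymetrix arrays. One array received RNA mixed from 3 wild-type mice. The other received RNA mixed from 3 mice whose sample title says KO, for a knockout of Gnmt (glycine N-methyltransferase, an enzyme that consumes S-adenosylmethionine), although its genotype entry reads wild-type. It is called the knockout-titled pool throughout. Its signal for Xist, the RNA of the inactive X chromosome of female cells, goes against the male label, as given below. The wild-type pool had high signals of some anterior pituitary genes, also given below. The sources used here do not say how Gnmt was disrupted. With 1 array of pooled RNA per group there was no replicate, so no test between the groups could be made and each value below describes these 2 pools.

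Initiation is the step of protein synthesis at which a ribosome is assembled on the start codon of an mRNA. The factor eIF2 brings the initiator tRNA to the small ribosomal subunit, the many-subunit factor eIF3 holds that subunit ready, and the eIF4 factors bind the mRNA cap and unwind the leader; eIF1, eIF1A and eIF5 act in choosing the start codon, and eIF5B joins the large subunit. Flow through the pathway is controlled by kinases that phosphorylate eIF2 and thereby block its exchange factor eIF2B, and by proteins that hold the cap-binding protein eIF4E. In the brain this control is known to bear on synaptic plasticity and memory, and inherited defects of eIF2B cause a disease of the white matter.

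Promoters of 6 members are shown because the members at the low end of the ratios given below and those nearest to 0 can be read side by side in them. RefSeq promoter windows of GRCm38.p6 were matched by gene identifier for 36 of the 45 members; the others are Eif1a, Eif2b3, Eif3e, Eif3h, Eif3i, Eif4e3, Eif4ebp1, Eif4g2 and Eif6. Each stretch runs 5′ to 3′ from 90 bases before the annotated start to the first 30 transcribed bases, so that base 91 is the first transcribed base. Capitals mark matches on either strand to 5 motifs, namely the Ets motif CCGGAAG, the E-box CACGTG, the CCAAT box CCAAT, the TATA box TATAAA and the GC box GGGCGG; marked matches may share bases. The first 3 are the members with the lowest ratios among genes with a single window, and the last 3 are those nearest to 0.
Eif2s2, chr2:154892877-154892996, minus strand: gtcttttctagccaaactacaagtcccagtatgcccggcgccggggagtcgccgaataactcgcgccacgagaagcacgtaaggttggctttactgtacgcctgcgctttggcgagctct
Eif5b, chr1:37997920-37998039, plus strand: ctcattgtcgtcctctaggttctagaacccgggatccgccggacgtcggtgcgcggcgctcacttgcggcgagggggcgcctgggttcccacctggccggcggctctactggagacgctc
Eif2a, chr3:58525731-58525850, plus strand: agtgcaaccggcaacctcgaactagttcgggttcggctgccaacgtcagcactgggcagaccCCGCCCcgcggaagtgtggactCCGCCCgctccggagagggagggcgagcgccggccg
Eif4a2, chr16:23107378-23107497, plus strand: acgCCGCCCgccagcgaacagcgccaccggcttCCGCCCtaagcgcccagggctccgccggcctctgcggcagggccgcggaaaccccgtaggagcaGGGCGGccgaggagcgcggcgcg
Eif4h, chr5:134639380-134639499, minus strand: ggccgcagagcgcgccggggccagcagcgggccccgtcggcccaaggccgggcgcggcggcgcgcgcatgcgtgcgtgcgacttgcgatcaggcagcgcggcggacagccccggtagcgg
Eif3f, chr7:108934325-108934444, plus strand: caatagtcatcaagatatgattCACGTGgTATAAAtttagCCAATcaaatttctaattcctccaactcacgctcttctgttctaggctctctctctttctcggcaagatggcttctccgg

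Eif2s2, Eif5b and Eif4h held none of the 5 motifs in these stretches. Eif2a carried GC boxes and Eif4a2 did too, while Eif3f, which encodes a subunit of eIF3, carried an E-box, a TATA box and a CCAAT box. The first 8 transcribed bases of Eif3f were CTCTCTTT, all pyrimidines, the kind of start known from mRNAs whose translation follows mTOR. At least 7 pyrimidines among the first 8 bases were found in 2 of the 36 members (5.56%) and in 5.57% of all genes of the table. Over whole windows of 300 bases, the Ets motif was found in 36.1% of the 36 members and in 9.12% of the 27025 genes of the promoter table, and the GC box in 72.2% and 35.9%. The E-box was found in 19.4% and 7.24%, the CCAAT box in 33.3% and 37.9%, and the TATA box in 5.56% and 14.2%. The table also holds noncoding genes, and G and C made up a median of 61.8% of the members' windows and 52.7% of all windows. Of the 15 members with a window whose signal was lower by 1.5-fold or more in the knockout-titled pool, 6 held the Ets motif and 10 the GC box. Of the 19 other measured members with a window, 7 held the Ets motif and 15 the GC box. These are letter matches and say nothing of binding.

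The arrays as a whole showed the following. A floor of 64.2 array units, the 40th percentile of all signals, took the place of detection calls, and a gene counted as measured when its brightest probe set reached the floor on both arrays, as for 12244 genes. Median signals were 92.0 (wild-type pool) and 124.9 units (knockout-titled pool). The single Gnmt probe set, at 10 units in the wild-type pool against 21.5 in the other, was below the floor on both arrays, so it does not check the labels. All 9 listed markers of cortical neurons on the array were measured in both pools, including Slc17a7, the vesicular glutamate transporter gene of cortical excitatory neurons, at a ratio of 0.20. Of these 9, Tbr1, Bcl11b and Cux2 were 2.08-fold, 2.06-fold and 1.54-fold higher in the knockout-titled pool and Neurod6 was 3.04-fold lower. Of 8 anterior pituitary markers, 3 were measured, and the signals of the 8 summed to 31448 units in the wild-type pool against 760.3 in the knockout-titled pool. Gh gave most of the wild-type sum, with 23222.9 units against 200 in the knockout-titled pool. Pomc, Cga and Prl were also lower there, Tshb differed little (89.2 and 72.7 units), and Fshb was below the floor in both. Xist had 49.6 units in the wild-type pool against 2560.3 in the knockout-titled pool, at least 39.6-fold higher in the latter. Y-linked genes reached the floor on each array but differed in sign. Uty gave a log2 ratio of -0.22 and Kdm5d one of -0.85, while Eif2s3y went the other way, at 0.16. The high pituitary signals were in the wild-type pool, labelled cerebral cortex, and the Xist signal was in the knockout-titled pool, labelled male. Both arrays are thus open to doubt. No result can be given without either, since each is the only one of its group. Of 8 glial markers, 5 were at least 1.5-fold lower and 1 higher in the knockout-titled pool, beside 18.2% and 12.5% of all measured genes. The microglial markers were split, with Cx3cr1 3.91-fold higher and C1qa and P2ry12 3.50-fold and 2.46-fold lower. The other lower ones were Gfap, Aqp4 and Slc1a3. The ratio of 3′ to 5′ signal of the array's Gapdh control was 0.932 in the wild-type pool and 1.02 in the other. That of the actin control was 3.71 and 3.76, though its 3′ signals were 9207.1 and 25266.7 units. The pyruvate carboxylase control gave 13.5 and 12.9. The transferrin receptor and 18S controls had a 5′ signal below the floor on at least 1 array. The part of the neuronal, pituitary, glial and sex-linked differences in the ratios of the initiation factors was not tested, and in bulk tissue fewer cells of a type and less RNA per cell cannot be told apart.

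Signals of initiation factor genes were mostly lower in the knockout-titled pool than in the wild-type pool. Of the 43 members measured, 17 (39.5%) were lower by 1.5-fold or more by their brightest probe set and 0 were higher by as much. Over all measured genes, 18.2% were lower and 12.5% higher by that margin. The median log2 ratio of knockout-titled over wild-type signal, centred on all measured probe sets, was -0.46 for the members and -0.06 for all measured genes. The ratio was below 0 for 39 of 43 members, or 90.7%, beside 54.1% of all genes. At 2-fold, 6 members were lower and 0 higher, against a background of 6.75% and 3.47%. The 4 members above 0 were the kinase genes Eif2ak3 and Eif2ak4 and the genes of the eIF4E-binding proteins Eif4ebp1 and Eif4ebp2, at 0.37, 0.19, 0.24 and 0.32. Signs near 0 changed with the scaling. With quantile normalization, Eif1ax, Eif3f, Eif3l, Eif4a2, Eif4h and Eif5a were also above 0, at 0.05, 0.20, 0.08, 0.27, 0.26 and 0.20. All of these but Eif1ax were above 0 with loess too. Neither Eif2ak2 nor Eif4a3 was measured.

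**Figure D1:**
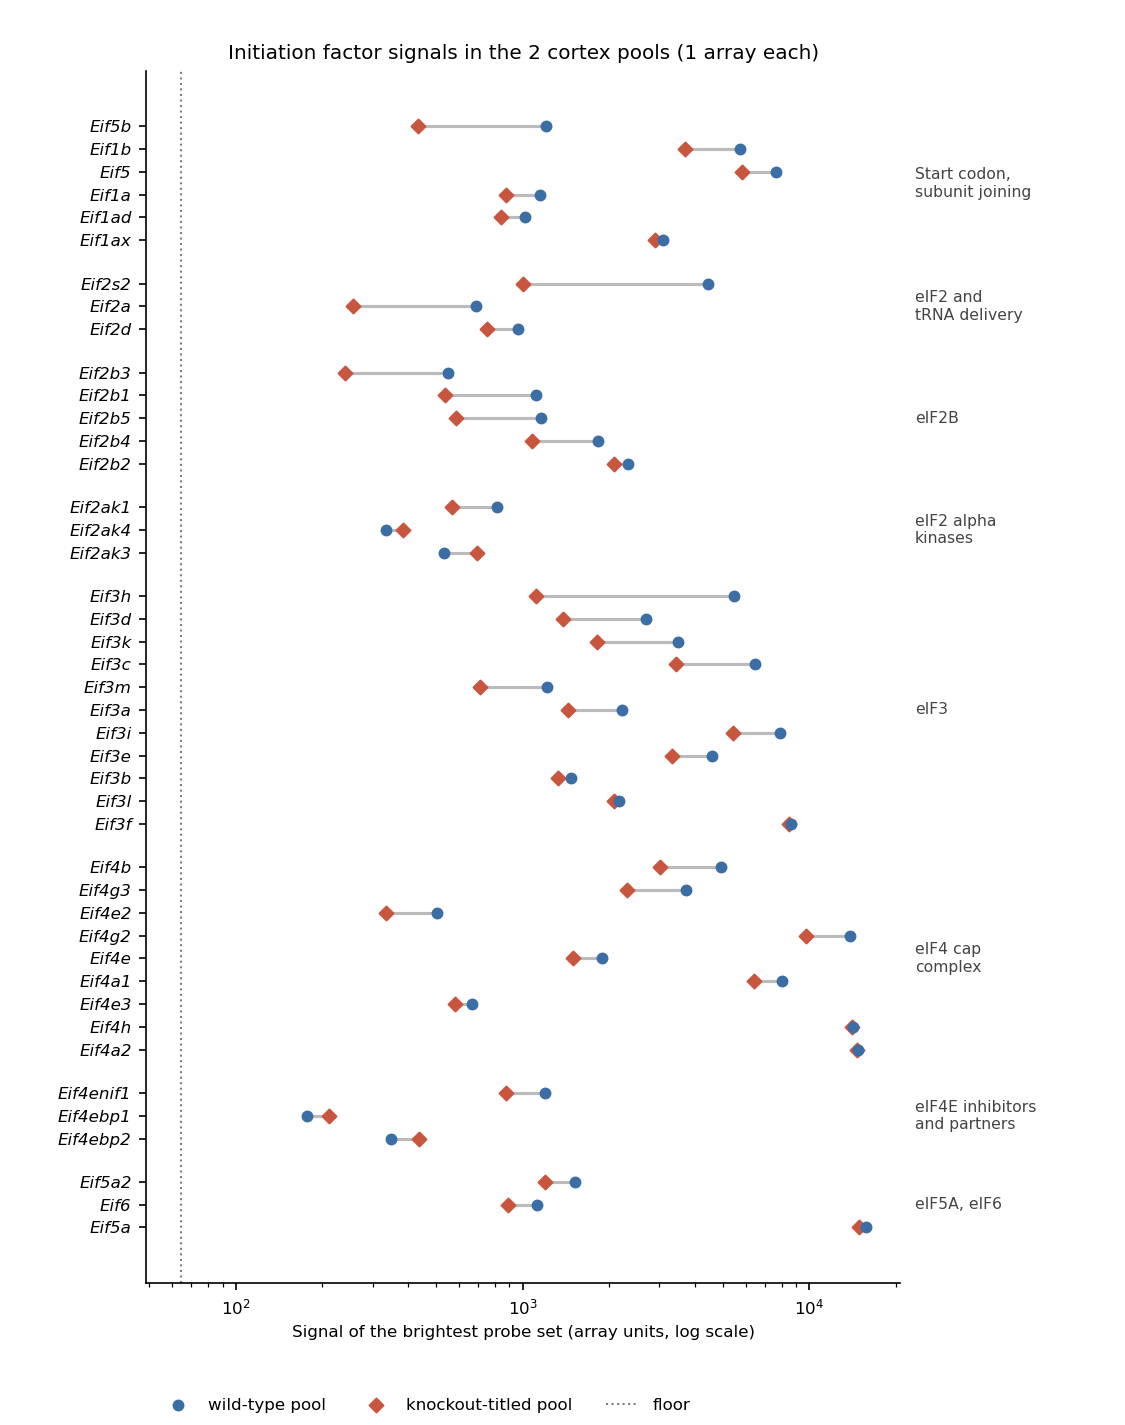
Signals of the brightest probe set of the 43 measured initiation factor genes in the wild-type pool (circles) and the knockout-titled pool (diamonds), in array units on a log axis, by role; the dotted line is the floor of 64.2 units. The diamond lies left of the circle for 39 genes, most widely for Eif3h and Eif2s2, and right of it for Eif2ak3, Eif2ak4, Eif4ebp1 and Eif4ebp2.

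**Figure D2:**
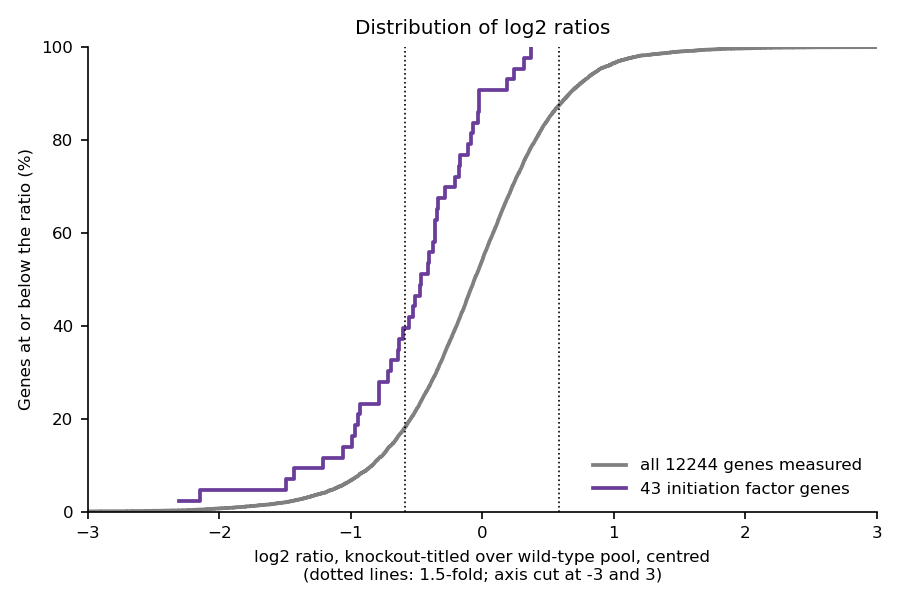
Cumulative share of genes (vertical axis, %) at or below each centred log2 ratio of knockout-titled over wild-type signal (horizontal axis) for the 43 measured initiation factors and all 12244 measured genes; dotted lines mark 1.5-fold. The curve of the initiation factors lies left of that of all genes, with medians of -0.46 and -0.06, and ends at 0.37.

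The error between probe sets sets the scale for these ratios. The SD of the log2 ratio between probe sets of the same gene, estimated over the 5375 genes with at least 2 measured probe sets, was 0.58, or 1.49-fold. It reflects how probe sets for 1 gene disagree within these pools, and the spread between mice or between pools is outside it. It is about as large as the 1.5-fold used for calls. Of the 17 members called lower, 5 were more than 2 such SD below 0. The share of all measured genes past that cut was not counted. At the slightly looser cut of 2-fold, 6.75% of them were lower. The spread of the 43 members among themselves was of like size, with an SD of 0.57 beside 0.64 over all measured genes. The members' ratios ran from -2.31 to 0.37.

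The genes of eIF2 and of initiator tRNA delivery held some of the lowest ratios. Eif2s2, which encodes the beta subunit of eIF2, had 4416 units in the wild-type pool against 1004 in the knockout-titled pool, a 4.43-fold lower signal with a log2 ratio of -2.15. Its 5 measured probe sets were all lower in the knockout-titled pool, at -2.15, -1.22, -1.01, -0.83 and -0.60, with a median of -1.01. The brightest probe set of Eif2s2 therefore gave a larger difference than its other probe sets. A further Eif2s2 probe set went the other way, with 48.3 units in the wild-type pool and 316.3 in the knockout-titled pool, at least 4.89-fold higher there. Eif2a encodes a separate factor that can deliver initiator tRNA to particular mRNAs. It had 686 and 256 units and was 2.70-fold lower, and its second measured probe set gave -1.42 beside -1.44. Eif2d, another noncanonical tRNA-delivery factor gene, had a ratio of -0.38 (967 and 751 units), with its other measured probe sets at -0.75, -0.01 and 0.20. A further Eif2d probe set was above the floor in the knockout-titled pool alone, at least 1.22-fold higher there. The low ratios of Eif2a thus rested on 2 probe sets that gave nearly the same value, while those of Eif2d differed in sign.

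Of the 5 genes for subunits of eIF2B, the factor that reloads eIF2 with GTP, 4 had signals at least 1.5-fold lower in the knockout-titled pool. Eif2b3, which encodes the gamma subunit, had 550.1 units in the wild-type pool against 239.7 in the knockout-titled pool and was 2.31-fold lower. Eif2b1, for the regulatory alpha subunit, had 1115 and 539 units and was 2.09-fold lower. Eif2b5, for the catalytic epsilon subunit, had 1157 and 586 units and was 1.99-fold lower. Each of these 3 values comes from a single measured probe set. A second Eif2b5 probe set, with 57.5 and 76.3 units, was above the floor in the knockout-titled pool alone, at least 1.18-fold higher there. Eif2b4, for the delta subunit, had 1837 and 1077 units and was 1.72-fold lower, also by its only probe set. Eif2b2, for the beta subunit, differed little, with 2329 and 2076 units and a ratio of -0.18, and its other probe sets gave -0.30 and 0.24. The subunit with the most probe sets was thus the one within 1.5-fold.

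The genes of the eIF2 alpha kinases, which switch initiation off under stress, had no member past 1.5-fold by brightest probe set. Eif2ak3 encodes PERK, the kinase of the endoplasmic reticulum; it had 534 units in the wild-type pool and 695 in the knockout-titled pool, with a log2 ratio of 0.37, the highest of all members. Eif2ak4 encodes GCN2, which senses uncharged tRNA; it had 334 and 383 units and a ratio of 0.19. Its second probe set reached the floor in the knockout-titled pool alone, with 16.7 and 157.3 units, at least 2.43-fold higher. Eif2ak1 encodes the heme-regulated kinase HRI; its 3 measured probe sets gave -0.53, -1.41 and -0.31, and a probe set above the floor only in the knockout-titled pool was at least 1.86-fold higher there. Of the 5 Eif2ak1 probe sets the one lowest in ratio was not the brightest, so the gene's value depends on the probe set taken. Eif2ak2 encodes PKR, the kinase activated by double-stranded RNA, and none of its 3 probe sets reached the floor on both arrays. Its brightest gave 87.3 and 27.5 units, at least 1.37-fold higher in the wild-type pool, and another gave 26.1 and 65.8 units, at least 1.02-fold higher in the knockout-titled pool.

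In eIF3, the scaffold on the small ribosomal subunit, all 11 genes with a single-gene probe set had ratios below 0 by their brightest probe sets. Of these, 6 were at least 1.5-fold lower, and the median was -0.63. With quantile normalization and with loess, Eif3f and Eif3l were above 0. Eif3h, which encodes a subunit of the core of the complex, had 5453 units in the wild-type pool against 1111 in the knockout-titled pool. It was 4.95-fold lower, the lowest ratio of all members at -2.31 and rank 35 from the lowest among all genes measured. Its other probe sets were below the floor on both arrays. Eif3d, whose product can itself bind the cap of some mRNAs, had 2688 and 1385 units and was 1.96-fold lower. Eif3k had 3491 and 1824 units and was 1.93-fold lower by its only probe set.

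Other eIF3 genes had several probe sets. Eif3c had 6488 and 3434 units by its brightest probe set and was 1.91-fold lower, and its other 3 gave -1.40, -1.15 and -0.52. Eif3m had 1217 and 712 units and was 1.72-fold lower, and its second probe set, at 132.4 and 76.7 units, gave -0.80 beside -0.79. Both genes thus had ratios below 0 in every measured probe set. Eif3a, which encodes the largest subunit, had 2216 and 1442 units by its brightest probe set, a ratio of -0.63, and 2193 and 799 units by the next, a ratio of -1.47. Another Eif3a probe set had 345 units in the wild-type pool and 17.8 in the knockout-titled pool, at least 5.42-fold lower in the latter. Quantile normalization, loess and a floor at the 60th percentile each took the brightest Eif3a probe set inside 1.5-fold, the highest of these values being -0.49.

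The remaining eIF3 genes lay within 1.5-fold. Eif3i had 7906 and 5405 units and a ratio of -0.56, with a second probe set at -0.85. Eif3e had 4574 and 3322 units and a ratio of -0.47, with others at -0.72 and -0.62. Both genes were below 0 in every measured probe set. Eif3b, for a subunit with an RNA-recognition domain, had 1480 and 1328 units and a ratio of -0.17. Eif3l had 2170 and 2085 units and a ratio of -0.07, while its other probe sets were above the floor in the knockout-titled pool alone, with lower bounds of 2.18-fold and 1.03-fold. Eif3f had 8609 and 8507 units and a ratio of -0.03. The ratios of subunits of 1 complex thus ran from -2.31 for Eif3h to -0.03 for Eif3f, whose products are the paired MPN-domain subunits of eIF3.

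**Figure D3:**
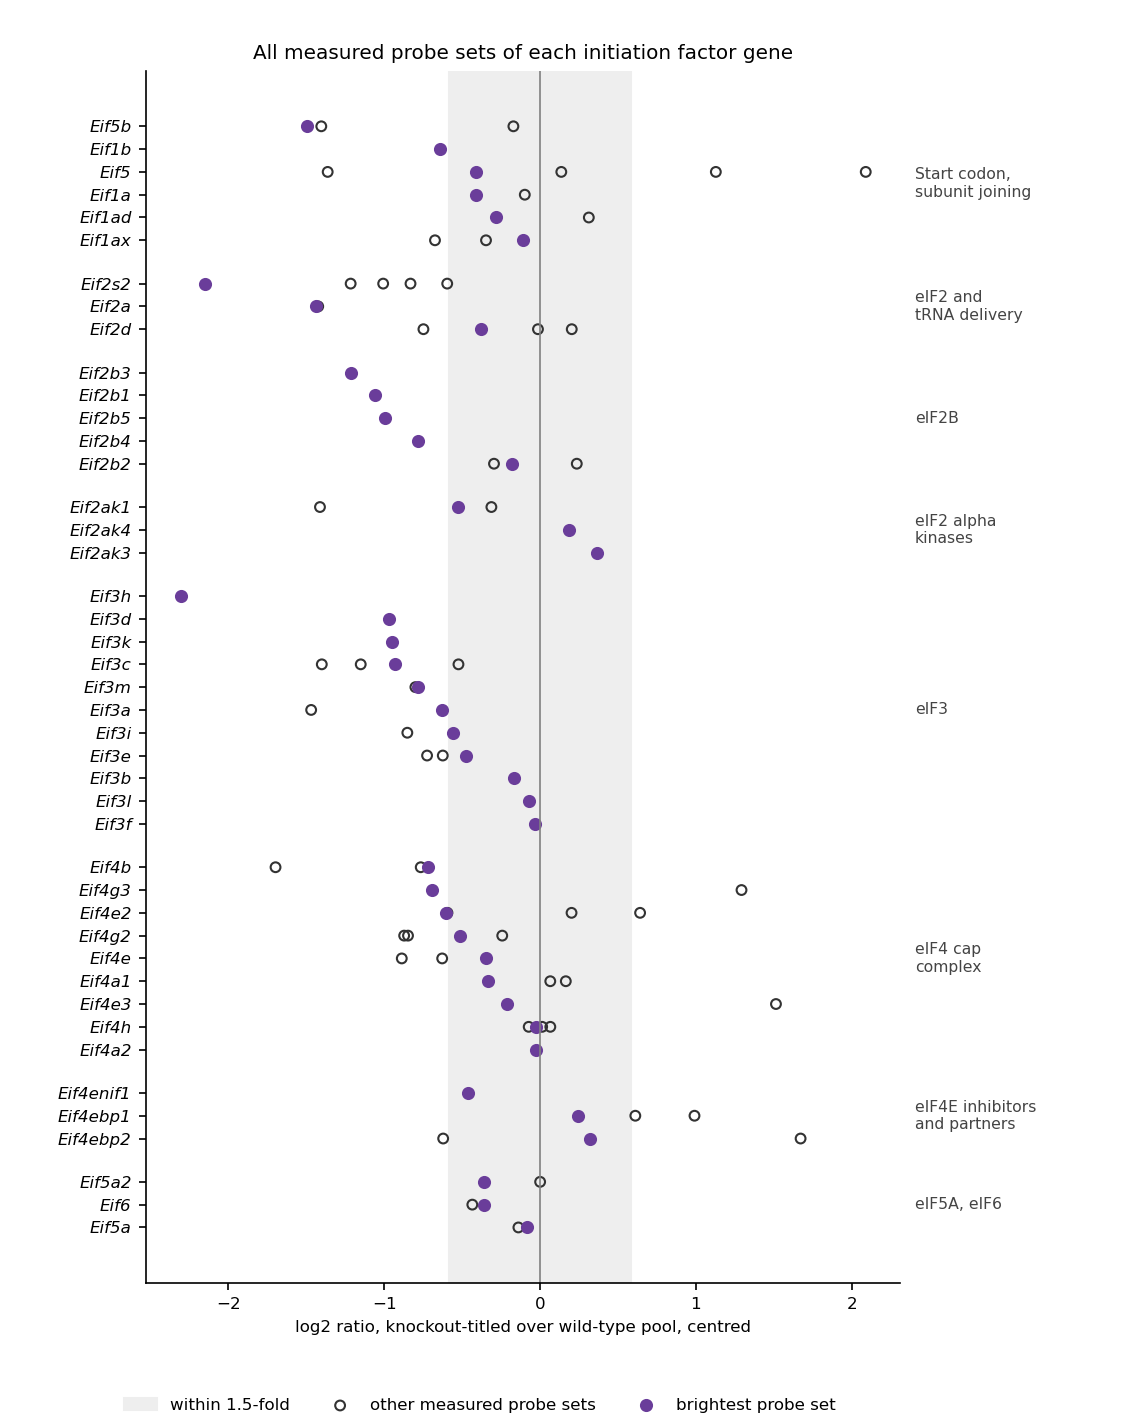
Centred log2 ratio of knockout-titled over wild-type signal (horizontal axis) of every measured probe set of each initiation factor gene, by role; filled points are the brightest probe set, open points the others, and the grey band is 1.5-fold either way. All 5 measured probe sets of Eif2s2 lie below the band, at -0.60 or lower, while the 5 of Eif5 run from -1.36 to 2.09.

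The cap-binding complex and its helpers held a mixture of moderate and near-zero ratios, with 3 of 9 measured genes at least 1.5-fold lower. Eif4a1 and Eif4a2 encode the closely related helicases that unwind mRNA leaders, and Eif4a2 is the form favoured in brain. Eif4a2 had 14733 units in the wild-type pool and 14623 in the knockout-titled pool, a ratio of -0.02. Eif4a1 had 8017 and 6410 units and a ratio of -0.33, and its other probe sets gave 0.17 and 0.07. Eif4a3, which encodes the related helicase of the exon junction complex, had 4.3 and 4 units on its only single-gene probe set, both below the floor. Neither cytosolic helicase gene was thus past 1.5-fold.

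The helicase partners differed from each other. Eif4b had 4908 and 3005 units and was 1.65-fold lower, and its other probe sets gave -0.77 and -1.70. With quantile normalization its brightest probe set came to -0.55, inside 1.5-fold. Eif4h, which encodes the other stimulator of eIF4A, had 14152 and 14024 units and a ratio of -0.03, and its other measured probe sets gave 0.01, -0.07 and 0.07. Of its dim probe sets, 1 was at least 1.72-fold higher in the knockout-titled pool and 1 at least 1.10-fold higher in the wild-type pool. Eif4b was thus lower in all of its probe sets and Eif4h was near 0 in all that were measured.

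Among cap-binding proteins and scaffolds, several genes had probe sets of both signs. Eif4e, the cap-binding protein gene, had 1887 and 1498 units and a ratio of -0.34, and its other measured probe sets gave -0.89 and -0.63. Eif4e2 encodes 4EHP, which binds the cap and represses translation; it had 504 and 335 units and was 1.52-fold lower, with its other measured probe sets at -0.59, 0.20 and 0.64 and a dim one, with 22.3 and 128.1 units, at least 1.98-fold higher in the knockout-titled pool. Its ratio was 0.20 once probe sets with a letter suffix in their name (a, s or x) were left out. Eif4e3, a further cap-binding paralog, had 664 and 579 units and a ratio of -0.21, while its second probe set had 294 and 846 units and a ratio of 1.51. Eif4e was thus below 0 in every measured probe set, and both paralogs were not.

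Eif4g2 and Eif4g3 encode scaffold proteins of the eIF4G family; the product of Eif4g2 lacks the site that binds eIF4E. Eif4g2 had 13813 and 9744 units and a ratio of -0.52, with its other measured probe sets at -0.87, -0.85 and -0.24. Eif4g3 had 3709 and 2315 units and was 1.62-fold lower by its brightest probe set, but a dim second probe set with 65.3 and 161.4 units gave 1.29. A further 2 Eif4g3 probe sets were above the floor in the knockout-titled pool alone, with lower bounds of 2.83-fold and 1.75-fold. The call for Eif4g3 thus rests on 1 probe set, and the median over its measured probe sets was 0.30.

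Of the 3 genes for inhibitors and partners of the cap-binding protein, 2 had ratios above 0 by their brightest probe sets and none was past 1.5-fold. Eif4ebp1, whose product holds eIF4E until mTOR phosphorylates it, had 177.5 units in the wild-type pool and 211.7 in the knockout-titled pool, a ratio of 0.24. Its other probe sets gave 0.61 and 0.99, the second of them from 77.2 and 154.8 units, close to the floor. It was the only member with at least 2 measured probe sets that were all above 0. Eif4ebp2 encodes the main eIF4E-binding protein of brain; it had 347 and 436 units and a ratio of 0.32, and its other measured probe sets gave -0.62 and 1.67; a dim one was at least 1.31-fold higher in the wild-type pool. Eif4enif1, for a protein that carries eIF4E into the nucleus, had 1195 and 873 units and a ratio of -0.46.

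Among genes grouped under start codon choice and subunit joining, all 6 had ratios below 0 by their brightest probe sets. Of these, 2 were at least 1.5-fold lower, and Eif1ax came to 0.05 with quantile normalization. Eif5b, for the GTPase that joins the ribosomal subunits, had 1204 units in the wild-type pool and 431 in the knockout-titled pool and was 2.82-fold lower. Its other probe sets gave -1.40 and -0.17. Eif1b, a paralog of the start codon factor eIF1, had 5714 and 3693 units and was 1.56-fold lower by its only probe set, and it was inside 1.5-fold with quantile normalization and with loess, where its highest value was -0.46. Eif1ax, an X-linked gene for eIF1A, had 3098 and 2903 units and a ratio of -0.11, with others at -0.35 and -0.67. Eif1a had 1154 and 876 units and a ratio of -0.41, with its other probe set at -0.10. Eif1ad had 1018 and 844 units and a ratio of -0.28, while its other probe set, with 306 and 384 units, gave 0.31, so that the median for the gene was 0.02. Before any change of scaling, Eif5b, Eif1ax and Eif1a were below 0 in every probe set, and Eif1b in its only one.

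Eif5 encodes the protein that triggers GTP hydrolysis by eIF2 at the start codon, and it was the member whose probe sets disagreed most. Its 5 probe sets, in order of wild-type signal, gave -0.41 (7677 and 5823 units), 0.14 (4126 and 4574 units), -1.36 (1627 and 638 units), 1.13 (1376 and 3033 units) and 2.09 (144.5 and 620.7 units). Of these, 4 are annotated to the same target sequence. The median was 0.14, so the sign for Eif5 changes with the probe set used.

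Factors that act after or outside start codon choice lay within 1.5-fold. Eif5a, for the hypusine-bearing factor now known to act in elongation, had 15720 and 14936 units and a ratio of -0.09, with its other probe set at -0.14. Its paralog Eif5a2 had 1529 and 1201 units and a ratio of -0.36, with its other probe set at 0.00. Eif6, for a factor that keeps the large subunit free, had 1127 and 888 units and a ratio of -0.36, with a second probe set at -0.43. None of these 3 genes had a measured probe set past 1.5-fold.

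Counts over all measured probe sets of the members include the brightest ones, so they are not separate from the counts above. Of 97 measured member probe sets, 42 (43.3%) had signals reduced by 1.5-fold or more in the knockout-titled pool and 8 (8.25%) raised by as much, beside 18.1% and 16.5% of all measured single-gene probe sets. The 8 higher ones belonged to Eif5, Eif4ebp1, Eif4ebp2, Eif4e2, Eif4e3 and Eif4g3, and none was the brightest of its gene. The low share of raised probe sets thus owes to the brightest ones being counted in. By the second brightest probe set, 15 of 28 members were lower and 3 higher, beside 19.1% and 19.4% of all genes. Every measured probe set was lower by 1.5-fold or more in 5 of the 28 members with at least 2 of them (17.9%, beside 6.64% of all such genes), namely Eif2a, Eif2s2, Eif3a, Eif3m and Eif4b. In none was every one higher by as much (background 3.83%). Probe sets of both signs were found in 11 members (39.3%), beside 44.4% of all such genes. Near the floor, 12 member probe sets (9.38%) were above it in the knockout-titled pool alone and 4 (3.13%) in the wild-type pool alone. These shares were close to those over all single-gene probe sets, 7.48% and 4.07%. These dim probe sets are outside the counts of measured values.

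Genes of the pathway outside the Eif names were taken as lists. Among 28 measured regulators and partners of initiation, 7 were at least 1.5-fold lower and 3 higher in the knockout-titled pool, with a median of -0.17. The shares over all measured genes were 18.2% lower and 12.5% higher, so these counts do not set the list apart. The lowest were Ddit3, a stress transcription factor gene induced downstream of eIF2 phosphorylation, at -1.13, and Dhx29, for a helicase that acts with the small subunit on structured leaders, at -1.12. Abce1, the ribosome-recycling factor gene, was 2.0-fold lower with 2203 and 1109 units. The highest was Rictor, a subunit gene of the second mTOR complex, 2.01-fold higher with 649.7 and 1319.9 units. Rptor and Mtor, of the complex that acts on the eIF4E-binding proteins, had ratios of -0.42 and -0.25. Atf4, the transcription factor gene whose translation rises when eIF2 is phosphorylated, had -0.47.

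Elongation and mitochondrial factors are given for comparison, beside 18.2% lower and 12.5% higher over all measured genes. Among 14 measured elongation and release factor genes, 2 were lower by 1.5-fold or more, none was higher, and the median was -0.18. Eef1b2, for the exchange factor of eEF1A, was lowest at -1.32 (6659 and 2689 units), and Eef2, the translocation factor gene, highest at 0.31. Among 9 measured mitochondrial translation factor genes, 3 were lower, none was higher, and the median was -0.56. Mrrf, the mitochondrial ribosome-recycling factor gene, was lowest at -2.30, Mtif2 and Mtif3, the mitochondrial initiation factor genes, had -1.70 and -1.03, and Tsfm was highest at 0.41. The medians of these lists differ from that of the initiation factors, and with 1 array per group these differences were not tested.

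**Figure D4:**
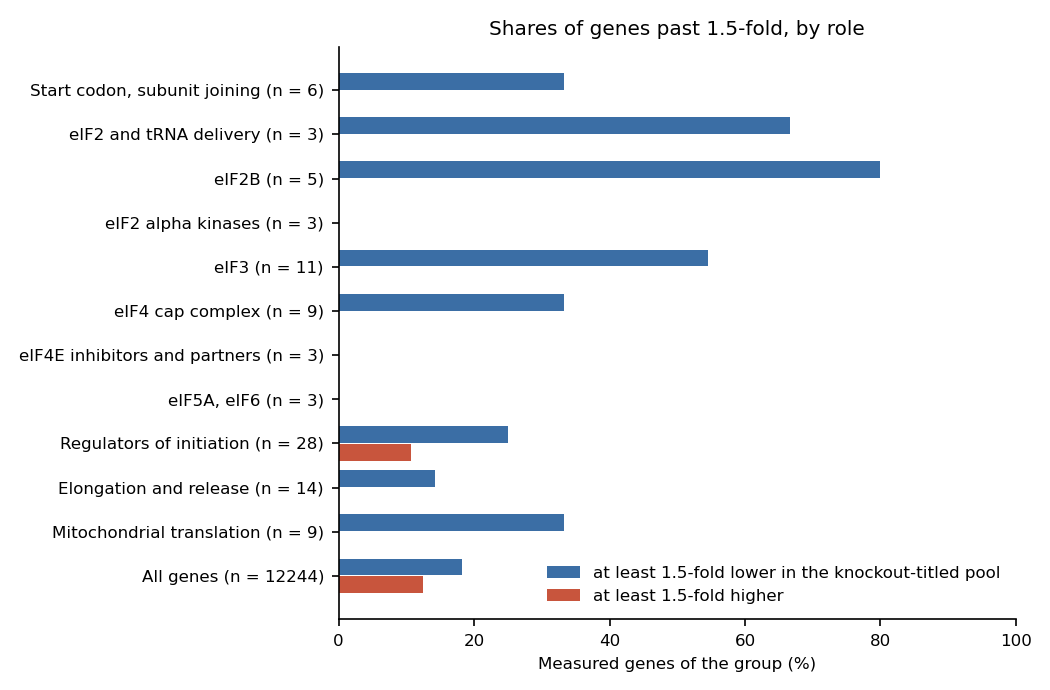
Share of the measured genes of each role group and pathway list (horizontal axis, %) with signals at least 1.5-fold lower (blue) or higher (red) in the knockout-titled pool, with all measured genes at the bottom; a missing bar means a share of 0. The eIF2B group has 4 of 5 genes lower and eIF3 6 of 11, while all genes stand at 18.2% lower and 12.5% higher.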

How the data were processed

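Trizol-extracted total RNA, 5 micrograms per array, was turned into biotinylated cRNA, per the labels' protocols. The deposited values are linear intensities, 1 per probe set and array; the submitters' processing notes name GCOS, but the signal algorithm was not given in the sources used here. The mean after trimming 2% at either end was 500.0 on both arrays. Columns were grouped by sample title. The platform annotation gave a single symbol for 34945 of the 45037 probe sets that are no controls, and 34741 of them took the RefSeq symbol (GRCm38.p6) through their gene identifier.

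The log2 ratio was centred on its median (0.01) over the 23928 probe sets at or above the floor on both arrays. A gene was represented by its brightest probe set, by mean log2 signal. Lower bounds are the signal over the floor, centred alike. No p-values were computed; precision is limited by having 2 arrays. Members, role groups and lists were chosen with earlier results of these data known. The genes named are all members, with every measured probe set for those at least 1.5-fold apart, of opposed signs, at the ends of a group or in the Eif4a, Eif4e and Eif2ak families, and the ends of each pathway list with those 2-fold apart; Atf4, Mtor and Rptor were added for their roles after their values were seen. For promoters the first window listed for a gene was used. Alternatives covered the floor, the scaling and the probe set chosen. Calculations were tested on simulated data. Software was matplotlib 3.10.9, statsmodels 0.14.6, scipy 1.17.1, pandas 2.3.3 and numpy 2.4.6 under Python 3.11.15.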

Additional observations from a re-analysis of the deposited data

How the results depend on the processing

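Under the 9 alternatives, members at least 1.5-fold lower numbered between 13 (of 43, quantile normalization) and 21 (of 45, no floor), beside 18.2% and 27.2% of all genes under those settings. The count of members at least 1.5-fold higher was 0 as reported. It was 2 of 43 by the median of all probe sets, 3 of 28 by the second brightest probe set and 1 of 33 without suffixed probe sets. Of all genes, 12.6%, 19.4% and 13.1% were higher by as much under those settings, in that order. The median log2 ratio of the members was -0.57 without a floor, -0.30 with quantile normalization and -0.61 by second brightest probe sets, and it was below 0 and below the median of all genes under each of the 9. Eif4g3 turned to 0.30 by the median of its probe sets and to 1.29 by the second brightest, and Eif4e2 to 0.20 without suffixed probe sets; the cause was not tested beyond the choice of probe set itself. Of the 17 members called lower, 12 stayed at least 1.5-fold lower under every alternative that gave a value, and Eif1b, Eif3a, Eif4b, Eif4e2 and Eif4g3 did not. No paired analysis was possible because each group is 1 array of pooled RNA, and no replicate could be left out for the same reason.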

Other observations

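Probe sets annotated to several genes, left out of all counts, included 6 that name an initiation factor. The 3 probe sets shared by Eif3j1 and Eif3j2, near-identical genes for the loosely bound subunit of eIF3, gave log2 ratios of -1.78 (2523 and 740.0 units), -1.71 and -1.30, each lower in the knockout-titled pool. A probe set shared by Eif4a3 and Gm5576 had 2343 and 2205 units and a ratio of -0.10, in contrast to the 4.3 and 4 units of the probe set annotated to Eif4a3 alone. A probe set shared by Ankhd1 and Eif4ebp3 gave 0.67.

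The sex-linked genes of the gamma subunit of eIF2, left out by the rule, lay near 0 by their brightest probe sets. Eif2s3x on the X chromosome had 1828 and 1727 units and a ratio of -0.09, with others at -0.37 and -0.59, and Eif2s3y on the Y chromosome had 880 and 989 units and a ratio of 0.16. The beta subunit gene Eif2s2, whose product binds beside gamma, had -2.15.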
